A study of Homo sapiens with 12 samples.

Results

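The genes described here are 10 members of the machinery that decides whether a cell leaves G1: the D-type cyclins CCND1, CCND2 and CCND3, the E-type cyclins CCNE1 and CCNE2, the kinases CDK4 and CDK6, the inhibitor genes CDKN1A and CDKN2A, and the pocket protein gene RB1. They were chosen by symbol, each matched to 1 Ensembl identifier, and make up 10 of the 28747 identifiers in the count table. The choice did not use their measured values, although earlier results of these data were known when it was made.

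All libraries came from DU145, an established human prostate carcinoma line that grows without androgen. Cells were stably transduced with a lentiviral short hairpin RNA, either a control (shCtrl) or a targeting one (shSigma), and cells with the latter are called depleted. Each was grown as an adherent monolayer in medium with serum or as tumor spheres, which form without attachment, at low density, in serum-free medium with growth factors. The 4 groups held 3 replicates each, described as independent, so 12 libraries of polyadenylated RNA were counted. The study used a pair of targeting hairpins and which of them the sequenced cells carried is not given in the sources used here, and effects of the hairpin itself cannot be told apart from those of losing its target. Tumor spheres also differ from adherent cells in medium and growth factors, and culture form and medium cannot be told apart.

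Passage through G1 is driven by cyclins, which rise and activate the kinases they bind. D-type cyclins link growth factor signals to CDK4 and CDK6, which begin to phosphorylate the pocket proteins, RB1 among them, and E-type cyclins with CDK2 complete that phosphorylation and release E2F transcription factors, whose targets include genes of DNA replication. Inhibitors of the INK4 family, such as the p16 product of CDKN2A, block CDK4 and CDK6, while CDKN1A (p21), a classical p53 target, acts mainly on CDK2. DU145 cells are known to lack functional RB protein and to carry mutant p53, so the RNA of RB1 counted here is not a measure of working protein.

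Libraries held 16472722 to 26957777 counts. Within a group the lowest correlation of log2 levels was 0.985, mitochondrial transcripts took 4.94 to 8.51% of counts. Adherent depleted replicate 3 differed more from its group mates than they did from each other, with a chi-square per gene of 24.6 and 33.0 against 2.73, and adherent control replicates 1 and 3 differed by 44.2. Without that depleted library, 3 genes were still called after knockdown in adherent cells, CCND1 (0.53), CCNE2 (-1.61) and CDK4 (-0.68), on the log2 scale, and the differences between cultures were -0.39 for CDK6 (adjusted p = 0.0432) and -1.05 for CDKN1A (adjusted p = 0.000178). Keratin genes KRT8 and KRT18, markers of epithelial cells, were abundant in all 4 groups. The 7 epithelial markers moved with the groups in both directions, 5 higher and 2 lower after knockdown in adherent cells and 1 higher and 5 lower in spheres. Their summed level ranged from 888 to 975 CPM in adherent control, 1187 to 1509 in adherent depleted, 2398 to 2462 in control sphere and 1024 to 1111 CPM in depleted sphere libraries. EPCAM averaged 235 CPM (counts scaled to the size of the library; here and below mean, or mean ± SD, n = 3) in adherent control cells, 30.9 in adherent depleted cells, 613 in control spheres and 61.9 in depleted spheres, and the E-cadherin gene CDH1 averaged 26.8, 12.01, 727 and 27.8 CPM in the same order. CLDN4 (2.07, 27.8, 49.1 and 95.5 CPM), a tight junction gene, was higher in depleted cells of each culture, and the keratin gene KRT19 (92.7 and 359 CPM) and the transcription factor gene ELF3 (7.28 and 24.3 CPM) were higher in depleted adherent cells. The part of these shifts in the results below was not tested. Among markers of blood, endothelial and connective tissue cells, 7 of 8 stayed at or below 25 counts in every library, and COL1A1 was the exception at 4.52 to 22.7 CPM by group.

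In depleted adherent cells CCND1 rose while CCNE2 and CDK4 fell, and in depleted tumor spheres the same 3 changes were joined by lower CCND3, CDK6 and CDKN1A. Called genes are those with an adjusted p below 0.05 in edgeR's quasi-likelihood test, where the Benjamini-Hochberg adjustment ran over every gene tested. In adherent cells 3 of 9 tested genes were called, or 33.3%, where 50.0% of all 13764 tested genes were called, 22.3% higher and 27.7% lower. In tumor spheres 6 of 9 were called, or 66.7%, against 61.1% of all 13774 genes, 30.2% higher and 30.9% lower. The shares among the 9 genes therefore lay near or below those of the whole transcriptome. Fitted variation between replicates, beyond counting noise, was 14.4% in the adherent and 6.89% in the sphere comparison. A gene called only in spheres need not differ in effect between the cultures. For CCND3 that difference was not called (-0.21, adjusted p = 0.392). When the log2 fold change also had to exceed 1 in size, CCNE2 alone was left in each culture, where 13.7% and 13.1% of all genes passed. The shSigma and shCtrl libraries of adherent cells did not overlap for 5 of 9 genes, compared with 57.9% of all genes, and those of tumor spheres did not overlap for 6 of 9, compared with 66.8%.

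Between tumor spheres and adherent cells, CCND1 and CDK6 were lower and CCND3, CCNE1, CDK4 and CDKN2A were higher in spheres, with either hairpin. In control cells 6 of 9 genes were called, 66.7%, against 53.7% of all 13800 genes, 27.4% higher and 26.3% lower. In depleted cells 8 of 9 were called, 88.9%, against 47.1% of all 13622 genes, 21.9% higher and 25.2% lower, with CDKN1A and RB1 added among the lower genes. CDK6 alone also had an absolute log2 fold change over 1 with either hairpin, where 15.8% and 9.32% of all genes did. Libraries of the cultures did not overlap for 6 of 9 genes in control cells, with 62.7% of all genes, and for 8 of 9 in depleted cells, with 60.8%. A knockdown effect that differed between the cultures was called for 2 of 9 genes, CDK6 and CDKN1A, or 22.2%, both lower in spheres, against 28.4% of all 14175 genes, 12.7% higher and 15.6% lower. CDKN1A alone had a difference of effects over 1 on the log2 scale, as did 8.54% of all genes.

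**Figure D1:**
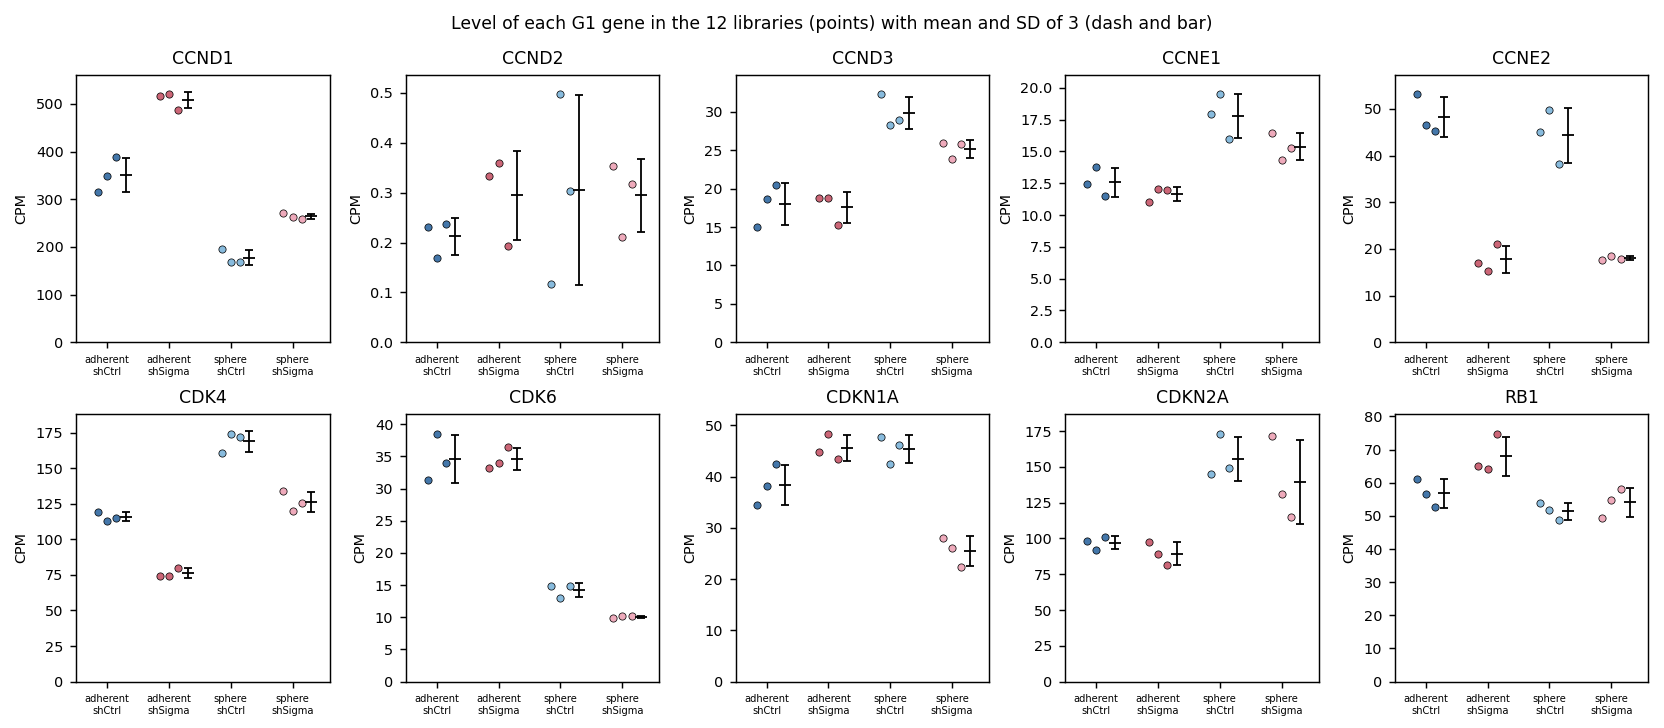
Level of each gene in CPM on the vertical axis, starting at 0 with a scale of its own per panel, for the 3 libraries of each group (points) beside their mean and SD (dash and bar). CCND1 ordered the 4 groups without overlap from 508 CPM in adherent depleted cells down to 177 CPM in control spheres, and CCND2 stayed under 0.5 CPM in every library.

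CCND1 (ENSG00000110092, chr11:69641156-69654474, GRCh38), the D-type cyclin that most growth factor signals act on, was the most abundant of the 5 cyclins per kilobase. It stood at 316, 349.8 and 388 CPM in the adherent control libraries and at 516, 520.1 and 488 CPM in the adherent depleted ones. Control spheres had 196, 169 and 168 CPM and depleted spheres 270.3, 264 and 259 CPM. No group overlapped another, and within each culture every depleted library lay above every control library. After knockdown CCND1 rose 1.39-fold in adherent cells (log2 fold change 0.47, SE 0.085, adjusted p = 0.00275) and 1.49-fold in spheres (0.57, SE 0.064, adjusted p = 1.15e-05). The effects in the cultures differed by 0.04 (SE 0.113) on the log2 scale, adjusted p = 0.818. From adherent culture to spheres the gene fell 1.98-fold in control cells (log2 -0.99, SE 0.095, adjusted p = 8.57e-05) and 1.89-fold in depleted cells (-0.92, SE 0.058, adjusted p = 1.8e-05).

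CCND2 (ENSG00000118971, chr12:4269771-4305353), a D-type cyclin with strong expression in other cell types, had 2 to 9 counts per library, too few to pass the filter on low counts in any comparison. With no filter its adjusted p lay between 0.514 and 0.970 in the 5 comparisons. Its libraries overlapped among all 4 groups. CCND3 (ENSG00000112576, chr6:41934934-42050357), a D-type cyclin best known from blood cells, averaged 18.0 ± 2.74 CPM in adherent control, 17.6 ± 2.01 in adherent depleted, 29.8 ± 2.12 in control sphere and 25.2 ± 1.17 CPM in depleted sphere libraries. The adherent groups overlapped, and every sphere library lay above every adherent one. In spheres CCND3 fell after knockdown, with a log2 fold change of -0.25 (SE 0.080, adjusted p = 0.0179). That call was lost in 1 fit of all 12 libraries (adjusted p = 0.0945), without shSigma replicate 2 (-0.21, adjusted p = 0.0810) and without shCtrl replicate 1 (-0.18, adjusted p = 0.0800). In adherent cells the value was -0.10 (SE 0.147, adjusted p = 0.620), and the difference between cultures was -0.21 (SE 0.165, adjusted p = 0.392). Spheres held more CCND3 than adherent cells, by 0.72 log2 units in control (adjusted p = 0.00185) and 0.54 in depleted cells (adjusted p = 0.00587).

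Per kilobase of annotated exon, CCND1 made up nearly all counted D-type cyclin RNA, and CCND3 took a larger part in spheres. Its share was 95.9 ± 0.232% in adherent control and 97.2 ± 0.231% in adherent depleted cells, against 87.7 ± 0.256% in control and 92.6 ± 0.332% in depleted spheres (n = 3). CCND3 accounted for 4.06, 2.77, 12.2 and 7.29% in the same order of groups. The summed D-type level was 77.0 ± 8.03 CPM per kb in adherent control cells against 42.5 ± 3.64 in control spheres, and 109.8 ± 4.01 against 59.9 ± 1.25 in depleted cells. These sums and shares are descriptions without a test. They take the near-zero counts of CCND2 as they stand, which are not read as absence.

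CCNE1 (ENSG00000105173, chr19:29811991-29824312), the E-type cyclin that partners CDK2 at the G1/S boundary, was low in all groups. It averaged 12.6 ± 1.14 CPM in adherent control, 11.7 ± 0.551 in adherent depleted, 17.8 ± 1.76 in control sphere and 15.4 ± 1.07 CPM in depleted sphere libraries. Within each culture the hairpin groups overlapped, and the sphere libraries lay above the adherent ones. After knockdown the log2 fold change was -0.17 (SE 0.113, adjusted p = 0.252) in adherent cells and -0.21 (SE 0.098, adjusted p = 0.0789) in spheres, the latter called only without shCtrl replicate 3 (-0.28, adjusted p = 0.0421). CCNE1 was higher in spheres by 0.50 log2 units in control (SE 0.116, adjusted p = 0.00753) and 0.42 in depleted cells (SE 0.091, adjusted p = 0.00731).

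CCNE2 (ENSG00000175305), the second E-type cyclin and a known E2F target, changed more after knockdown than any other of the 9 tested genes in either culture. The adherent libraries held 53.1, 46.4 and 45.2 CPM with the control hairpin and 17.0, 15.4 and 21.0 CPM with shSigma. In spheres the values were 45.0, 49.9 and 38.1 CPM against 17.6, 18.4 and 17.8 CPM. Every depleted library was below every control library, and the cultures overlapped within each hairpin. The gene fell 2.84-fold in adherent cells (log2 -1.51, SE 0.124, adjusted p = 7.45e-05) and 2.47-fold in spheres (-1.30, SE 0.097, adjusted p = 3.77e-07), and the effects differed by 0.13 (SE 0.170, adjusted p = 0.613). Culture moved it by -0.12 (adjusted p = 0.382) in control and 0.04 (adjusted p = 0.795) in depleted cells. CCNE2 overlaps INTS8 and NDUFAF6 in the annotation, and these neighbours also fell, INTS8 by 0.50 and 0.62 and NDUFAF6 by 0.76 and 0.60 on the log2 scale in adherent cells and spheres. Among the 40 tested genes closest to it the median was -0.55 and -0.53, against -0.01 and 0.00 for all genes. Whether reads were shared between overlapping genes was not tested.

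CCNE2 made up a smaller part of E-type cyclin RNA in the depleted libraries of each culture. Per kilobase, it took 68.2 ± 2.56% of it in adherent control and 45.9 ± 3.98% in adherent depleted cells, and 58.2 ± 0.865% against 39.6 ± 2.18% in spheres. The sum of both genes was 16.1 ± 1.11 against 8.80 ± 0.733 CPM per kb in adherent cells and 17.3 ± 2.05 against 10.3 ± 0.348 in spheres. The depleted libraries did not overlap the control libraries of the same culture in either measure, which was not tested.

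**Figure D2:**
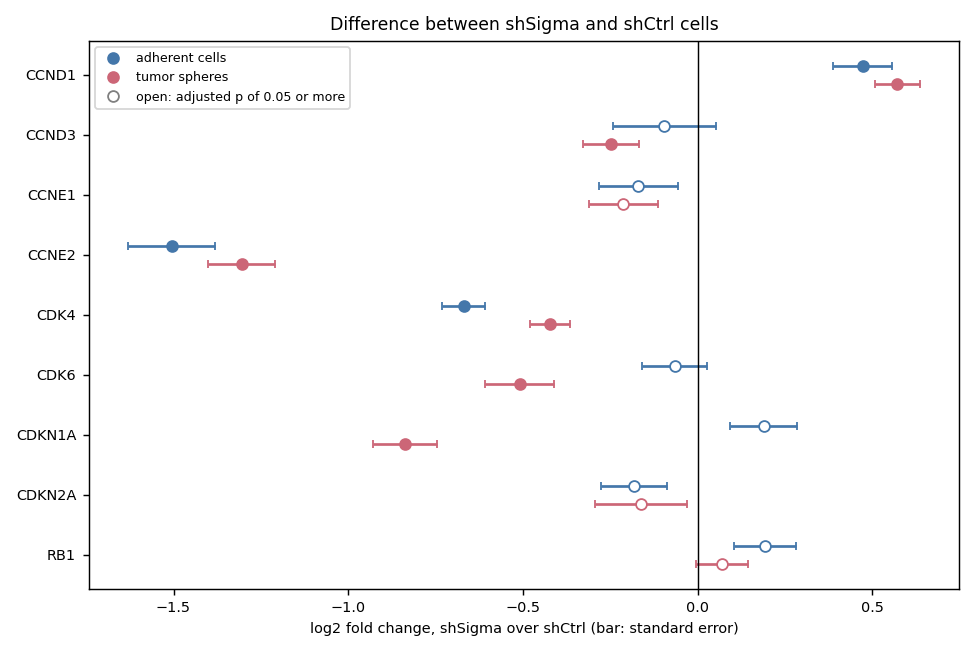
Log2 fold change of shSigma over shCtrl cells (horizontal axis) with its standard error (bar) for the 9 tested genes in adherent cells and tumor spheres; filled points had an adjusted p under 0.05. CCND1 lay to the right in both cultures (0.47 and 0.57) and CCNE2 farthest to the left (-1.51 and -1.30), while CDKN1A lay at 0.19 in adherent cells and at -0.84 in spheres.

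CDK4 and CDK6 are the catalytic partners of D-type cyclins and share their substrates. The RefSeq promoter table used here was matched for 7 of the 10 genes, and the 250 bases before a start of each kinase (GRCh38.p14, minus strand, chr12:57752311-57752560 for CDK4 and chr7:92836574-92836823 for CDK6) are printed 5′ to 3′ because the levels of this pair moved in opposite directions between the cultures. Capitals mark the E-box CACGTG, which MYC-type factors are known to bind, and the GC box GGGCGG, searched on both strands.
CDK4: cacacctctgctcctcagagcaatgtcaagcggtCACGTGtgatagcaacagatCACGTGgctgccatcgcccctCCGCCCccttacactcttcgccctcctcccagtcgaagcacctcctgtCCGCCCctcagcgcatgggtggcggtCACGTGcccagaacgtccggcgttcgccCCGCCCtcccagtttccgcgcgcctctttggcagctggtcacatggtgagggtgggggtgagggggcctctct
CDK6: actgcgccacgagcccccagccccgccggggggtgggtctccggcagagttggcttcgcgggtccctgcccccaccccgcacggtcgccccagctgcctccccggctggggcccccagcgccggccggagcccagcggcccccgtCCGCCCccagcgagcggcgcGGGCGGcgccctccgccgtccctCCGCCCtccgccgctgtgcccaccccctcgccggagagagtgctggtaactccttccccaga
The CDK4 stretch holds 3 E-boxes, 216, 196 and 101 bases before the start, and the CDK6 stretch holds 0. At least 1 E-box was found in 6.34% of 35116 RefSeq promoter stretches of this length. Each of the printed stretches has 3 GC boxes, a motif present in 42.6% of all stretches. The table also holds a second CDK6 start, whose stretch (chr7:92833960-92834209, not printed) has 0 of either motif. An E2F core motif, the TATA box TATAAA and the CRE TGACGTCA were also searched, with 0 matches in each of these stretches. These matches describe letters and no binding was measured. Any link between these motifs and the culture differences was not tested.

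CDK4 (ENSG00000135446, chr12:57747727-57756013) had 119.6, 113 and 115 CPM in adherent control and 73.9, 74.5 and 80.2 CPM in adherent depleted libraries. Control spheres had 161, 174 and 172 CPM and depleted spheres 134, 120.1 and 125 CPM. No group overlapped another, with control spheres highest and adherent depleted cells lowest, although the lowest depleted sphere (120.1 CPM) and the highest adherent control library (119.6 CPM) nearly met. CDK4 fell 1.59-fold after knockdown in adherent cells (log2 -0.67, SE 0.061, adjusted p = 0.000113) and 1.34-fold in spheres (-0.42, SE 0.057, adjusted p = 5.48e-05). The effects differed by 0.19 (SE 0.089, adjusted p = 0.136). That difference was called with at least 10 counts required in every library (0.25, adjusted p = 0.0299), without adherent shSigma replicate 3 (0.30, adjusted p = 0.0168) and without adherent shCtrl replicate 1 (0.22, adjusted p = 0.0469). Spheres held more CDK4, by 0.54 log2 units in control (SE 0.059, adjusted p = 0.000163) and 0.75 in depleted cells (SE 0.055, adjusted p = 4.00e-05). The adjoining genes did not share one direction. TSPAN31, which overlaps CDK4, rose by 1.58 and 0.83 log2 units after knockdown in adherent cells and spheres, while the median of the 40 nearest tested genes was -0.29 and -0.22.

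CDK6 (ENSG00000105810, chr7:92604921-92836573) had the largest culture difference of the 9 tested genes, with either hairpin. Adherent libraries had 31.3, 38.5 and 34.0 CPM with shCtrl and 33.2, 34.0 and 36.5 CPM with shSigma. The corresponding values in spheres were 14.9, 13.0 and 14.9 CPM and 9.83, 10.2 and 10.1 CPM. The adherent groups overlapped, the control spheres lay below both, and the depleted spheres lay below the control spheres. From adherent culture to spheres CDK6 fell 2.43-fold in control cells (log2 -1.28, SE 0.110, adjusted p = 4.81e-05) and 3.38-fold in depleted cells (-1.76, SE 0.073, adjusted p = 2.57e-06). Knockdown lowered it in spheres (-0.51, SE 0.099, adjusted p = 0.000856), and in adherent cells the value was -0.07 (SE 0.092, adjusted p = 0.583). The difference between these effects, -0.50 (SE 0.133), passed the test at an adjusted p of 0.0114. Around CDK6 the 40 nearest tested genes had a median of 0.38 and 0.51, above 0, and the adjacent gene SAMD9 rose by 2.24 and 1.42.

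Per kilobase, CDK4 RNA exceeded CDK6 RNA 13.4 ± 1.75-fold in adherent control and 8.73 ± 0.0736-fold in adherent depleted cells. In spheres the ratio was 47.2 ± 5.38 in control and 49.9 ± 3.71 in depleted cells (n = 3). All 6 sphere libraries lay above all adherent libraries, and the hairpin groups overlapped in spheres and not in adherent cells. No test was made of these ratios.

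**Figure D3:**
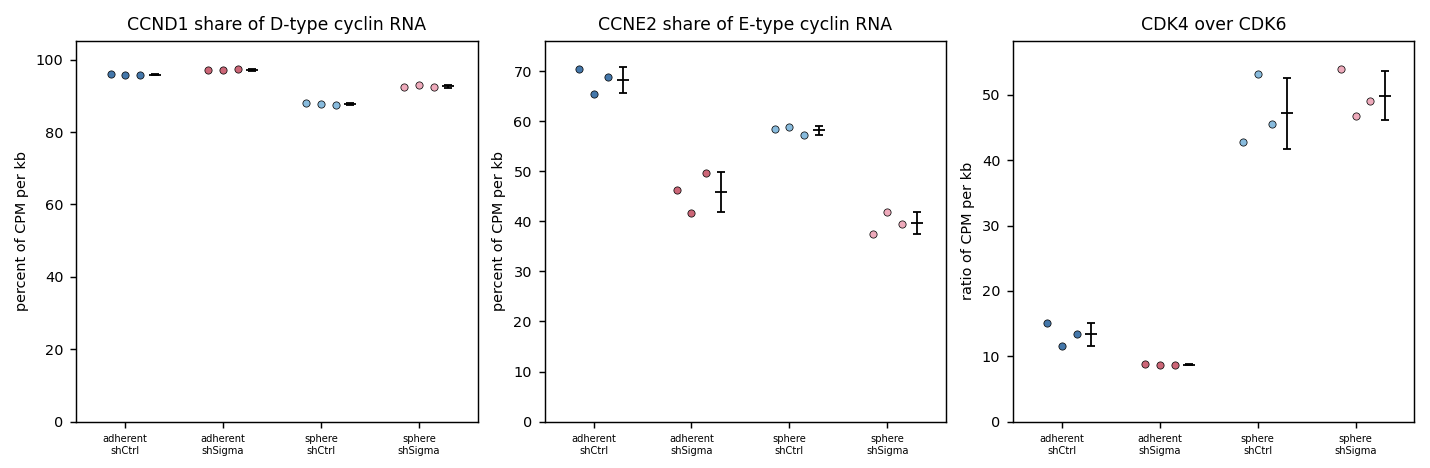
Share of CCND1 in D-type cyclin RNA, share of CCNE2 in E-type cyclin RNA (percent of CPM per kb) and ratio of CDK4 to CDK6 (CPM per kb), with the 3 libraries of each group as points beside mean and SD; vertical axes start at 0. The CCNE2 share was lower in depleted cells of each culture, and the kinase ratio was 13.4 and 8.73 in adherent cells against 47.2 and 49.9 in spheres.

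**Figure D4:**
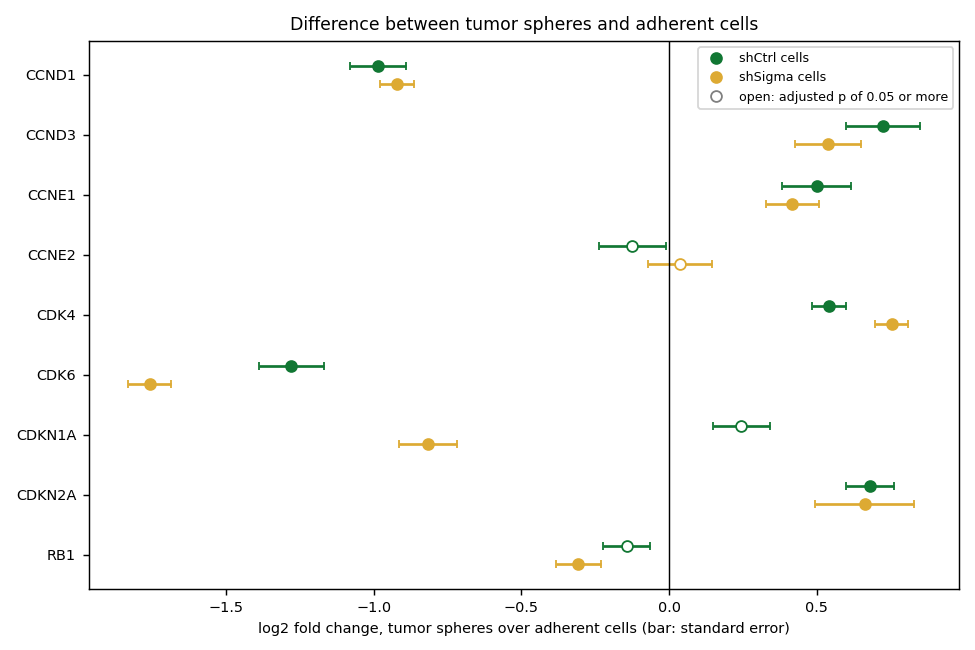
Log2 fold change of tumor spheres over adherent cells (horizontal axis) with its standard error (bar) for the 9 tested genes in shCtrl and shSigma cells; filled points had an adjusted p under 0.05. CCND1 (-0.99 and -0.92) and CDK6 (-1.28 and -1.76) lay to the left, CCND3, CCNE1, CDK4 and CDKN2A to the right, and CDKN1A lay on opposite sides of 0 (0.24 and -0.82).

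CDKN1A (ENSG00000124762, chr6:36676460-36687337), which encodes p21, gave the widest gap between the knockdown effects of the cultures among the 9 genes. It had 34.5, 38.1 and 42.5 CPM in adherent control and 44.9, 48.4 and 43.5 CPM in adherent depleted libraries. Control spheres had 47.8, 42.5 and 46.2 CPM, whereas depleted spheres had 28.0, 26.1 and 22.4 CPM. The depleted spheres lay below all 9 other libraries. In spheres knockdown lowered CDKN1A 1.79-fold (log2 -0.84, SE 0.091, adjusted p = 8.97e-06). The adherent value was 0.19 (SE 0.096, adjusted p = 0.140), with depleted libraries above control ones, and it was called in 1 fit of all 12 libraries (0.25, adjusted p = 0.0423). The difference between cultures was -1.08 (SE 0.139, adjusted p = 6.31e-05). Culture lowered the gene in depleted cells (-0.82, SE 0.100, adjusted p = 0.000474). In control cells it was 0.24 (SE 0.097, adjusted p = 0.0631), which was called with upper-quartile normalization (0.28, adjusted p = 0.0320), in 1 fit of all 12 libraries (0.25, adjusted p = 0.0454) and without adherent shCtrl replicate 3 (0.27, adjusted p = 0.0342).

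CDKN2A (ENSG00000147889, chr9:21967752-21995301) encodes p16, an inhibitor of CDK4 and CDK6, and from another first exon ARF, which acts on MDM2. Its row of counts covers both transcripts and cannot separate them. The RefSeq stretches of 250 bases before the distal start (chr9:21995325-21995574) and the proximal start (chr9:21974858-21975107; both GRCh38.p14, minus strand) are printed to show that the transcripts begin at unlike sequences, with the GC box GGGCGG in capitals.
CDKN2A distal start: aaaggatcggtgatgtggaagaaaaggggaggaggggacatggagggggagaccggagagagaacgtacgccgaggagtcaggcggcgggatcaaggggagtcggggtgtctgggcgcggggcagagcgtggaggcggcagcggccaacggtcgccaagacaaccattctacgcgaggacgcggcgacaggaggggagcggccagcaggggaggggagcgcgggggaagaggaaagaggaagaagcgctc
CDKN2A proximal start: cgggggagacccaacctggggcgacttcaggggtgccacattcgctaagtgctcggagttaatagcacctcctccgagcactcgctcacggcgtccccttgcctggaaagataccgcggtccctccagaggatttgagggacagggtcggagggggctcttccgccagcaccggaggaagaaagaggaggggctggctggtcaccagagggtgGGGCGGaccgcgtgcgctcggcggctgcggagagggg
The distal stretch holds 0 GC boxes and the proximal one 1, at 37 bases before the start. Counts of the gene were 98.3, 92.1 and 101 CPM in adherent control and 97.5, 88.9 and 81.4 CPM in adherent depleted libraries. In spheres they were 145, 173 and 149 CPM and 172, 131 and 115 CPM. The hairpin groups overlapped in each culture, and every sphere library lay above every adherent one. Knockdown gave -0.18 (SE 0.094, adjusted p = 0.150) in adherent cells and -0.16 (SE 0.132, adjusted p = 0.312) in spheres. Without depleted sphere replicate 1, the library at 172 CPM, the latter was -0.33 with an adjusted p of 0.00772. CDKN2A was higher in spheres by 0.68 log2 units in control cells (SE 0.081, adjusted p = 0.000279) and 0.66 in depleted cells (SE 0.166, adjusted p = 0.0213). The second of these calls was lost with no filter on low counts (adjusted p = 0.0595), without adherent shSigma replicate 2 (0.67, adjusted p = 0.0562) and without replicate 3 of that group (0.58, adjusted p = 0.103).

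RB1 (ENSG00000139687, chr13:48303744-48599436), the pocket protein that D-type kinases phosphorylate in early G1, averaged 56.8 ± 4.26 CPM in adherent control, 68.0 ± 5.92 in adherent depleted, 51.4 ± 2.53 in control sphere and 54.1 ± 4.45 CPM in depleted sphere libraries. Adherent depleted libraries lay above the other 9, which overlapped. The knockdown value was 0.19 (SE 0.089, adjusted p = 0.107) in adherent cells and 0.07 (SE 0.074, adjusted p = 0.440) in spheres. The adherent one was called in 1 fit of all 12 libraries (0.26, adjusted p = 0.0193) and without adherent shCtrl replicate 1 (0.31, adjusted p = 0.0317). Spheres held less RB1 than adherent cells among depleted cells (-0.31, SE 0.078, adjusted p = 0.0135). In control cells the value was -0.14 (SE 0.081, adjusted p = 0.163), called without adherent shCtrl replicate 3 (-0.25, adjusted p = 0.0299). In bulk RNA, fewer cells in a phase of the cycle and less RNA of a gene per cell cannot be told apart, for this and all genes above.

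The other inhibitors of cyclin-dependent kinases split in both cultures after knockdown. Of 5 tested, 2 rose and 2 fell in adherent cells and 2 rose and 3 fell in spheres (median log2 fold change -0.32 and -0.59, against -0.01 and 0.00 for all genes). Among all tested genes 22.3% were called higher and 27.7% lower in adherent cells, and 30.2% and 30.9% in spheres. CDKN1B, which encodes p27, rose by 0.83 (adjusted p = 0.000107) and 0.57 (adjusted p = 3.57e-05), and CDKN2B, which encodes the INK4 protein p15, by 0.45 and 0.73. CDKN3, a phosphatase gene that peaks in mitosis, fell by 1.12 and 0.73. CDKN2C fell by 0.32 and 0.59. CDKN2D fell by 1.24 in spheres (adjusted p = 1.40e-05), with -0.48 (adjusted p = 0.0610) in adherent cells.

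CDK2 and its activators fell for the most part, 6 of 7 tested genes in adherent cells and 5 of 7 in spheres, with 1 higher in each (median -0.72 and -0.57). Over all tested genes the lower share was 27.7% in adherent cells and 30.9% in spheres, and the higher share 22.3% and 30.2%. CDK7, a kinase that all cells use, was listed at group means of only 0.0171 to 0.0651 CPM and could not be tested, so a near-zero row in this table is not read as absence. CDC25A, a phosphatase that activates CDK2, fell by 1.89 and 1.04, and CDC25B was the one that rose, by 0.29 and 0.58. CDK2 itself fell by 0.72 and 0.46. CKS1B, a CDK-binding subunit, fell by 0.90 in adherent cells, and MNAT1, a subunit of the CDK-activating kinase, fell by 0.78 in spheres. Of 14 genes of cyclin and inhibitor turnover, 2 rose and 5 fell in adherent cells and 4 rose and 4 fell in spheres (median -0.13 and -0.04). The ubiquitin ligase scaffold CUL1 rose by 0.30 and 0.62 while its partner RBX1 fell by 0.37 and 0.59. SKP2, the receptor that marks p27 for degradation, fell by 0.47 in adherent cells, where GSK3B, a kinase that marks cyclin D1 for export, rose by 0.54. In spheres AMBRA1, which targets D-type cyclins for degradation, rose by 0.34 and FBXO31 fell by 0.49.

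Downstream of the kinases, 7 genes of pocket proteins and the MuvB complex gave 1 higher and 5 lower in adherent cells and 2 higher and 2 lower in spheres (median -0.50 and -0.05). Of all tested genes 22.3% were called higher and 27.7% lower in adherent cells, and 30.2% and 30.9% in spheres. The sphere counts of the pocket protein and MuvB genes lay near those shares. RBL2, the pocket protein p130 of resting cells, rose by 0.49 and 0.42. RBL1, which encodes p107, fell by 0.40 in adherent cells and rose by 0.51 in spheres, and its effects differed by 0.85 (SE 0.118, adjusted p = 0.000131). The MuvB genes LIN9 (-0.87 and -0.27) and LIN52 (-0.85 and -0.69) fell in each culture. Of 9 E2F and DP factor genes, 1 rose and 5 fell in adherent cells and 1 rose and 3 fell in spheres (median -0.27 and 0.00), and E2F2, listed at 0 in every library, was not tested. The repressor E2F7 fell by 1.74 and 0.80 and E2F8, its close relative, fell by 1.17 in adherent cells and was at 0.02 in spheres. TFDP2 rose by 0.45 in adherent cells, and in spheres E2F4 rose by 0.28 and E2F5 fell by 0.63. E2F1 fell by 0.80 in adherent cells (adjusted p = 0.0152) and was at 0.00 (SE 0.085, adjusted p = 0.984) in spheres, a difference of 0.75 (adjusted p = 0.0264).

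E2F target genes of the G1/S transition fell in 15 of 20 cases in adherent cells, with 0 higher (median -0.94), and in spheres 12 fell and 3 rose (median -0.22), where 27.7% and 30.9% of all genes were lower. The origin-binding gene ORC1 fell by 1.92 and 0.90. CDC6, which loads the replicative helicase, fell by 1.25 in adherent cells and the sliding clamp gene PCNA by 0.57 in spheres, where the thymidine kinase gene TK1 (0.30) and the helicase gene MCM5 (0.28) rose. The effects differed between cultures for 14 of the 20, with the sphere value the higher one in each, where 28.4% of all genes were called, 12.7% higher and 15.6% lower. Cyclins and kinases of S and M phase fell in 9 of 10 cases in each culture (median -0.92 and -0.51), against 27.7% and 30.9% of all genes, among them CCNB1 by 1.31 and CCNB2 by 1.24 in adherent cells and CDC25C by 0.76 and CDK1 by 0.69 in spheres. Cyclins and CDKs that act in transcription, a comparison outside the cell cycle, gave 3 higher and 3 lower of 12 in adherent cells and 2 and 2 in spheres (median -0.01 and 0.07). The share of all genes called higher was 22.3% in adherent cells and 30.2% in spheres, beside the lower shares of 27.7% and 30.9%. CDK19 rose by 0.75 and 0.79 and CCNL2 by 0.34 and 0.35, while CDK11B (-0.62) and CDK8 (-0.38) fell in adherent cells and CCNC (-0.25) and CCNK (-0.16) in spheres.

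Lists of p53 target, MAPK output and Wnt target genes held called genes in both directions, with MAPK output genes mostly lower in adherent cells. For the counts in this paragraph, 22.3% of all tested genes were called higher and 27.7% lower in adherent cells. In spheres those shares were 30.2% and 30.9%. Of 22 p53 target genes other than CDKN1A, 4 rose and 9 fell in adherent cells and 6 rose and 7 fell in spheres (median -0.23 and -0.08). PHLDA3 rose by 1.09 and ZMAT3 by 0.92 in adherent cells, where PLK3 fell by 0.85 and DDB2 by 0.81. In spheres FAS rose by 0.68 and BBC3 by 0.66, while GADD45A fell by 1.16 and PHLDA3 by 0.77. Genes that report MAPK output, a pathway known to induce CCND1, were lower in 10 and higher in 2 of 13 in adherent cells, and lower in 7 and higher in 4 in spheres (median -0.57 and -0.28). DUSP4 rose by 2.02 and SPRY2 by 0.73 in adherent cells, where EPHA2 fell by 1.12 and SPRY4 by 1.00. In spheres SPRY2 rose by 1.57 and DUSP5 by 1.25, and DUSP6 fell by 1.01 and ETV4 by 0.71. Of 9 Wnt target genes, 1 rose and 2 fell in adherent cells and 5 rose and 2 fell in spheres (median 0.10 and 0.41). SP5 rose by 0.80 and 2.03 and AXIN2 by 1.93 in spheres, LEF1 fell by 1.80 and 1.51, NKD1 fell by 1.34 in spheres, and MYC fell by 0.54 in adherent cells. These lists were chosen with earlier results of the data known, so their counts are descriptions and no list was tested as a set.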

How the data were processed

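Polyadenylated RNA of 12 DU145 libraries was sequenced from directional libraries with single-end reads, and the authors deposited raw counts per Ensembl gene identifier without normalization. The submitters' processing notes name STAR 2.6.1c and GRCh38.p12. The gene annotation, whether strand was used and how multiply aligned reads were handled are not given in the sources used here, so counts of overlapping genes are less certain and genes with multiply aligned reads may be missed. Symbols were taken from GENCODE, matching 26153 of 28747 identifiers.

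From these counts, levels were computed as CPM with TMM factors over all 12 libraries, and per kilobase of merged exon. Each comparison was fitted on its own libraries with edgeR 4.0.16 in R 4.3.3 (filterByExpr at a minimum count of 10, TMM, robust quasi-likelihood test, two-sided, prior count 0.125, Benjamini-Hochberg adjustment over all genes tested). The interaction used all 12. The standard error (SE) was derived from the test, as the absolute log2 fold change divided by the square root of its F statistic. Because each fit has its own scaling, the fitted adherent knockdown values lie a median of -0.06 log2 units from differences of the printed levels. The procedure was first tested on simulated data. Correlations with other genes are descriptions. Named were all 10 genes, the 3 genes most alike, and per list up to 2 called genes highest and lowest in each knockdown comparison. Of the nearest tested genes, some were named and others left out, with their values known. CDK2, CDKN2C, E2F1, E2F8, MYC and RBL1 in some comparisons, and the marker genes, fall outside this rule and were picked with their values known. The genes and lists were chosen with earlier results of these data known.

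Replicates are called independent in the study's methods, and p-values measure the spread among the 3 libraries of each group. No replicates agreed within sampling noise (chi-square per gene 2.73 to 44.2), so none was counted as a duplicate. Alternatives were DESeq2 1.42.0, its size factors, upper-quartile normalization, other filters, 1 fit of all 12 libraries, stricter thresholds, a replicate block and each library left out. Promoter stretches are from RefSeq (GRCh38.p14). Figures were drawn with matplotlib 3.10.9. Other experiments of the study were not analysed here. The level of the targeted gene is not reported here.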

Additional observations from a re-analysis of the deposited data

Results flagged for a closer look

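For 2 of the 9 tested genes the effect of knockdown differed between the cultures by the interaction of hairpin and culture in edgeR's quasi-likelihood test. CDK6 had a knockdown effect in tumor spheres minus that in adherent cells of -0.50 on the log2 scale (adjusted p = 0.0114), with the 3 depleted sphere libraries below the 3 control sphere libraries and overlapping adherent groups. CDKN1A had a difference of -1.08 (adjusted p = 6.31e-05), with every depleted sphere library below every control sphere library. The adherent effect of CDKN1A was not called (0.19, adjusted p = 0.140). Adherent depleted libraries lay only narrowly above the control ones, at 43.5 CPM or more against 42.5 CPM or less. The adherent groups likewise did not overlap for 57.9% of all genes.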

How the results depend on the processing

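Requiring an absolute log2 fold change over 1 left 1 called gene in each of the 5 comparisons. One fit of all 12 libraries called 5 in adherent knockdown, and an adjusted p under 0.01 left 1 in the interaction. With each library left out in turn, called genes numbered 3 to 4 for knockdown in adherent cells, 5 to 7 in spheres, 6 to 8 for culture in control cells, 7 to 8 in depleted cells and 2 to 3 for the interaction. Reversed directions occurred for genes that were not called. With a library left out, values ranged from -0.099 to 0.079 for CDK6 and from -0.16 to 0.021 for CCND3 in adherent knockdown, from -0.048 to 0.15 for CCNE2 in the culture comparison of depleted cells, and from -0.15 to 0.025 for CCNE1 and -0.19 to 0.109 for CDKN2A in the interaction. The interaction value of CDKN2A was also above 0 with DESeq2 size factors (0.0026), DESeq2 (0.0025), no filter (0.039) and at least 10 counts in every library (0.020). The causes were not tested.

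Correlations between the deviations of same-numbered replicates ranged from -0.735 to 0.288 over the 4 comparisons of 2 groups, with values over 0.1 in the culture comparisons (0.161 in control and 0.195 and 0.288 in depleted cells). In none of the 4 were all 3 over 0.1, and not every library correlated best with its own number, so the numbers are not read as pairs. Unlike numbers in the adherent knockdown comparison ranged from -0.597 (depleted replicate 2 with control replicate 1) to 0.706 (depleted replicate 3 with control replicate 1). Adherent libraries of both hairpins thus shared part of their deviations, for a reason that was not tested. With a replicate block the called genes numbered 3, 6, 6, 8 and 2 in the order of comparisons above, and the share of all genes called in adherent knockdown was 35.4% in place of 50.0%. CCND2 had 2 to 9 counts per library and did not pass the filter on low counts. Whether reads with several alignments were lost was not tested.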

Other observations

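Among 14175 tested genes, those whose log2 CPM followed each of the 9 genes most closely over the 12 libraries were found by Pearson's r, which largely reflects the 4 groups the libraries share. CCND1 went with SSH1, HEG1 and AXL (r = 0.992, 0.990 and 0.989) and CCND3 with KIFC2, PTK7 and SIL1 (0.985, 0.983 and 0.982). CCNE1 had looser company in H3C10, ZNF254 and MAFA (0.948, 0.947 and 0.944), and CCNE2 was followed by B3GALNT1, FGD5-AS1 and EIF1B (0.995, 0.994 and 0.993). CDK4 went with RPN1, PLA2G4A and PKN2 (0.988, 0.986 and 0.985), and CDK6 with THSD4, GRAMD1B and KCNC4 (0.994, 0.993 and 0.985). Values for CDKN1A were lower, with HSF2BP, PHYKPL and GPT2 (0.942, 0.941 and 0.935). CDKN2A was followed by GPX4, DUSP23 and ECHS1 (0.955, 0.953 and 0.952) and RB1 by TAB3, REV1 and SPIN1 (0.980, 0.970 and 0.969).

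Next to CCND1, MYEOV rose with it after knockdown, by 0.43 in adherent cells and 1.01 in spheres on the log2 scale, and fell with it from adherent culture to spheres, by 1.81 in control and 1.26 in depleted cells. LTO1, which overlaps CCND1, rose by 0.34 (adjusted p = 0.0319) after knockdown in adherent cells, with 0.18 (adjusted p = 0.0740) in spheres. Its culture values were 0.02 (adjusted p = 0.842) in control and -0.18 (adjusted p = 0.149) in depleted cells. Around CCND1 the 40 nearest tested genes had a median knockdown value of 0.21 and 0.26. Their median culture value was 0.34 in control and 0.22 in depleted cells, opposite in sign to that of CCND1. Beside CDKN1A, the splicing factor gene SRSF3 fell in both knockdown comparisons, by 0.61 and 0.39. On its other side CPNE5 rose by 1.13 (adjusted p = 0.00666) in adherent cells, with 0.39 (adjusted p = 0.252) in spheres.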
